A study of Lotus japonicus with 6 samples.

Results

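The 100 most abundant transcripts of control root nodules are described here in nodules of the same legume, Lotus japonicus, that overexpressed a NAC transcription factor. They were chosen from 46398 transcripts as those with the highest mean CPM, the count scaled to 1000000 counts of its library, in the control libraries. A mean of at least 1 CPM under NAC overexpression was also required. The data are RNA-seq of nodules at 3 weeks post-inoculation. They comprise 3 libraries of a line overexpressing the NAC factor (NAC-OE) and 3 libraries of a line overexpressing the reporter GUS (GUS-OE), both in the MG-20 background. The factor is NAC094, which the title of the study ties to early nodule senescence. The sources used here do not give the promoter of either transgene, the plants behind a library or the number of independent lines.

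A legume nodule is a root organ in which cells filled with rhizobia receive fixed nitrogen from the bacteria and feed them with carbon compounds. Host cells of a working nodule devote much of their messenger RNA to a small number of products, among them leghaemoglobin, which binds oxygen and keeps its free level low for the bacterial nitrogenase. Senescence ends this state: the symbiotic cells are dismantled, leghaemoglobin is broken down and proteases and other degradative enzymes are made. NAC proteins are a family of transcription factors found in plants, and some of them control the ageing of leaves. The deposited identifiers were not paired with gene names or products in the sources used here, so no product is assigned to any of the 100 transcripts. The NAC094 transcript itself, nodule marker genes and sequences were likewise not analysed here. Each transcript is called by its rank of mean GUS-OE CPM, with rank 1 the most abundant, and 6 of them also by identifier. The digit after Lj is read as the chromosome, with 0 for sequence not placed on a chromosome, the usual reading for gene models of MG-20.

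Total counts lay between 35531188 and 39513316 per library, so even the lowest single value among the 100 transcripts rested on 145.7 counts. The members came from 93 loci. The NAC-OE minimum removed 0 of the first 100 transcripts: the most abundant transcript below it stood at rank 188, with 0.159, 0.277 and 0.101 CPM in NAC-OE replicates 1, 2 and 3, against 493, 611 and 470 CPM in GUS-OE replicates 1, 2 and 3. At the other edge, the rank 100 transcript averaged 6.56 CPM in NAC-OE and 885 CPM in GUS-OE, and the first transcript outside, at rank 101, averaged 576 CPM in NAC-OE and 872 CPM in GUS-OE. The choice used the GUS-OE levels, which also enter every NAC-OE over GUS-OE ratio. Those ratios and the calls made on them are therefore descriptions, and tests on libraries that the choice did not use are given separately.

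Most of the transcripts that dominated control nodules were far scarcer in NAC-OE nodules, a smaller group stayed within 2-fold without a call and a few rose. In the edgeR quasi-likelihood test across all transcripts (Benjamini-Hochberg adjusted p under 0.05), 81 of the 100 were called lower in NAC-OE, against 30.7% of the 46346 transcripts tested, and 42 were lower by 10-fold or more, against 2.64%. By the same test 5 were called higher, against 31.5%, and 14 were not called, against 37.8%. The fitted log2 fold change, NAC-OE over GUS-OE, ranged between -7.57 and 2.14 with a median of -2.76, where the median over all transcripts tested was 0.01. Of the 39 that fell less than 10-fold, 37 were lower by 2-fold or more and 2 by less than 2-fold. All 14 uncalled transcripts had a 95% interval of the fold change that stayed within 2-fold in either direction. By the library values, all 3 NAC-OE values lay below all 3 GUS-OE values for the 81 transcripts called lower (25.3% of all tested) and above them for 8 (43.3% of all tested), which were the 5 called higher and the uncalled ranks 26, 48 and 56. The other 11 overlapped.

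**Figure D1:**
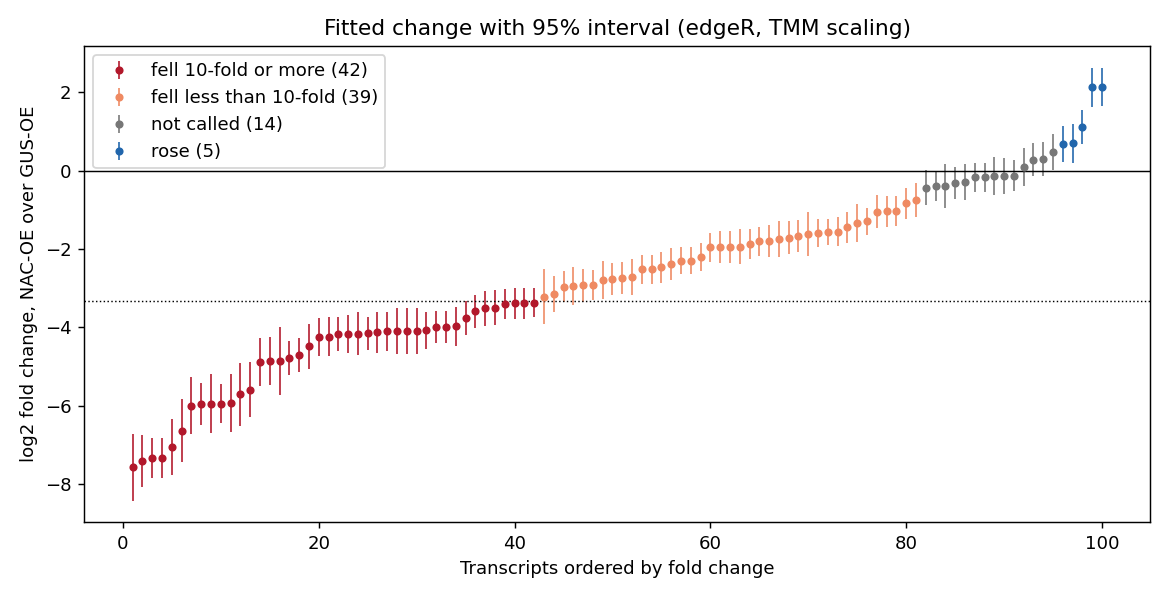
Fitted log2 fold change of NAC-OE over GUS-OE for each of the 100 transcripts (points) with its 95% interval (bars), ordered by size and coloured by class; the dotted line marks a 10-fold fall. The 42 deepest falls reach -7.57 and the 5 rises reach 2.14.

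CPM values printed below are scaled by the summed counts of a library, while the fitted fold changes use TMM scaling factors. Without scaling factors, on library sizes alone, the median over all tested transcripts was 0.34 on the log2 scale, so every fitted value moved up by about that shift. Under that scaling 81 members were lower, 35 by 10-fold or more, and 8 were higher. Of ranks 101 to 200 in the same ranking, 74 were lower and 6 higher under it. Shares over all transcripts tested are not given for that scaling, and those of the TMM fit do not apply to it.

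The 10 most abundant transcripts of control nodules were all lower in NAC-OE, 8 of them by 10-fold or more. Only ranks 4 and 10 among them had whole counts in every library, so the value of each of the others alone is uncertain. The rank 1 transcript, Lj5g3v0035290.1, of 471 bases and placed on chromosome 5, had 796, 626 and 1230 CPM in NAC-OE replicates 1, 2 and 3, against 23091, 17260 and 21827 CPM in GUS-OE replicates 1, 2 and 3. Its fitted log2 fold change was -4.89 ± 0.28 (SE), or 29.6-fold lower. The groups did not overlap, and NAC-OE replicate 3 was the highest of its group. Rank 2, of 461 bases on chromosome 6, had 1149, 789 and 1419 CPM in the NAC-OE libraries, against 18415, 22026 and 18758 CPM in GUS-OE, a fall of 22.4-fold. Rank 3, of 558 bases on chromosome 5, had 316.5, 240 and 625 CPM in NAC-OE, against 18810, 13586 and 16370 CPM in GUS-OE, and fell 52.4-fold. Each of these 3 short transcripts was more than 10-fold below every GUS-OE value in every NAC-OE library. The rank 5 transcript, a second transcript of the rank 1 locus with 493 bases, had 334, 206 and 675 CPM in NAC-OE, against 10224, 7688 and 9677 CPM in GUS-OE. It fell 29.0-fold, and both transcripts of the locus were highest in NAC-OE replicate 3 and lowest in NAC-OE replicate 2.

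Ranks 4 and 6, both on chromosome 3, fell less and stayed among the most abundant transcripts of NAC-OE nodules, at ranks 18 and 19 of that group. Rank 4, of 1368 bases, had 2693, 1900 and 2025 CPM in NAC-OE, against 10844, 11860 and 11965 CPM in GUS-OE, a fall of 6.6-fold (log2 fold change -2.72 ± 0.21, SE). Rank 6, of 1691 bases, had 2582, 1916 and 2095 CPM in NAC-OE, against 9280, 8766 and 9301 CPM in GUS-OE, a fall of 5.21-fold. In both, replicate 1 was the highest NAC-OE library and the groups were far apart.

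The other 4 of the first 10 fell between 17.8-fold and 26.1-fold with little spread among the NAC-OE libraries. In GUS-OE rank 10 was the most uneven of them, with an SD of log2 CPM of 0.21, against a median of 0.124 over the members. Rank 7, of 3767 bases on chromosome 4, had 603, 491 and 523 CPM in NAC-OE, against 7833, 7032 and 8459 CPM in GUS-OE. Rank 8, on chromosome 5, had 360.5, 350.1 and 409.5 CPM in NAC-OE, against 7315, 8089 and 7773 CPM in GUS-OE. The NAC-OE libraries of these transcripts differed from each other far less than the groups did. Rank 9 belongs to a neighbouring locus and had 529, 499 and 559 CPM in NAC-OE, against 7045, 7854 and 7589 CPM in GUS-OE. Rank 10, of 1811 bases on chromosome 6, had 430.2, 347 and 412 CPM in NAC-OE, against 4892, 6533 and 5486 CPM in GUS-OE. Its counts were whole in every library, and it fell 18.0-fold.

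**Figure D2:**
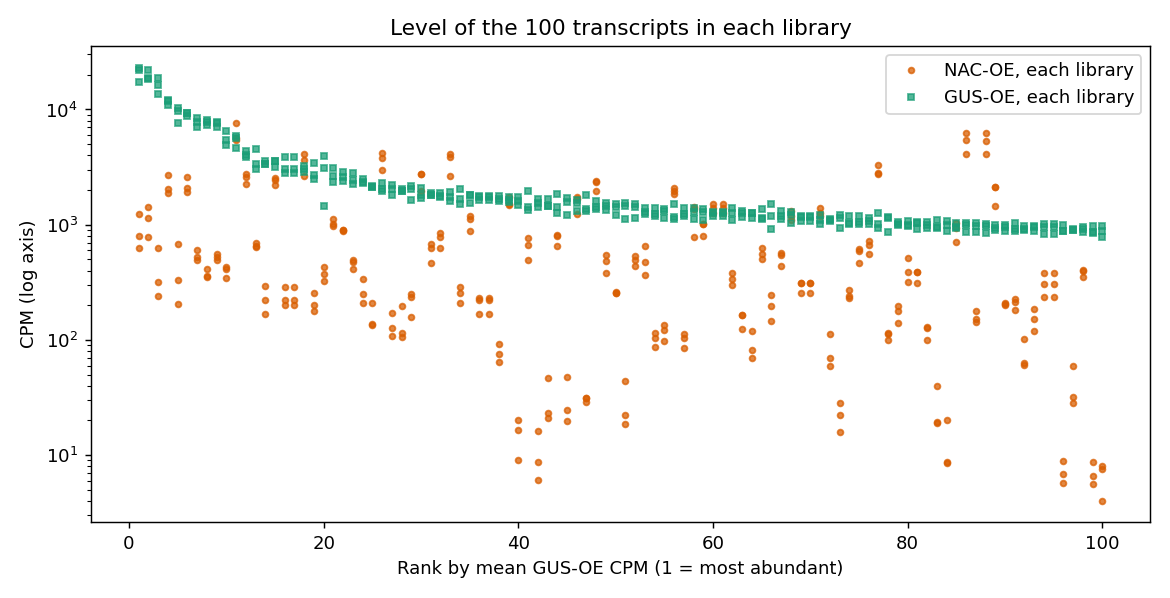
CPM (log axis) of each of the 100 transcripts in the 3 NAC-OE libraries (circles) and the 3 GUS-OE libraries (squares), by rank of mean GUS-OE CPM. For 81 transcripts all NAC-OE points lie below all GUS-OE points, and 3 transcripts average under 10 CPM in NAC-OE.

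The deepest falls were not those of the most abundant transcripts. Of the 100, 13 had a log2 fold change of -5 or below, and 6 fell 100-fold or more, at ranks 40, 42, 84, 96, 99 and 100. The lowest fitted value was that of Lj0g3v0044349.1 at rank 42, of 431 bases on unplaced sequence. It had 6.12, 8.69 and 16.2 CPM in NAC-OE replicates 1, 2 and 3, against 1423, 1541 and 1684 CPM in GUS-OE replicates 1, 2 and 3, with a log2 fold change of -7.57 ± 0.38 (SE), or 190.0-fold lower. Rank 40 has the same length and is also unplaced, with 20.4, 9.08 and 16.7 CPM in NAC-OE, against 1484, 1605 and 1756 CPM in GUS-OE. The values of ranks 40 and 42 ran in parallel across the GUS-OE libraries and in NAC-OE replicates 2 and 3. They parted in NAC-OE replicate 1 alone, so the gap between their log2 fold changes, -7.06 for rank 40, rests on that library. Without NAC-OE replicate 1 the log2 fold change of rank 42 was -7.23. Rank 100, from a locus neighbouring that of rank 40, had 7.61, 4.04 and 8.02 CPM in NAC-OE, against 789.7, 880.5 and 984 CPM in GUS-OE, and was 171-fold lower. Ranks 96 and 99, both of 414 bases and unplaced, carried counts within 5% of each other in every library. Rank 96 had 6.84, 5.78 and 8.97 CPM in NAC-OE, against 879, 992 and 886 CPM in GUS-OE, and was 161-fold lower. Rank 99 had 6.57, 5.65 and 8.77 CPM in NAC-OE, against 853, 967 and 864 CPM in GUS-OE. None of these 5 unplaced transcripts had whole counts, so reads may have been divided between features and the value of each alone is uncertain.

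Of the other 5 among the 10 lowest fold changes, 4 came from chromosomes 1, 2 and 4. Rank 84, of 845 bases on chromosome 2, had 8.63, 8.76 and 20.2 CPM in NAC-OE, against 996, 1075 and 886 CPM in GUS-OE, and its counts were whole. Rank 47, of 772 bases on chromosome 1, also with whole counts, had 31.1, 28.9 and 31.4 CPM in NAC-OE, against 1371, 1796 and 1313 CPM in GUS-OE. Their log2 fold changes were -6.65 ± 0.36 and -5.95 ± 0.23 (SE), the first with one NAC-OE library well above the others and the second with 3 nearly equal ones. Rank 45, on chromosome 4, had 24.5, 19.8 and 48.2 CPM in NAC-OE, against 1719, 1226 and 1586 CPM in GUS-OE. Rank 43, of 521 bases and unplaced, had 23.4, 21.0 and 46.9 CPM in NAC-OE, against 1444, 1670 and 1460 CPM in GUS-OE. They fell 62.1-fold and 63.9-fold, and in both NAC-OE replicate 3 stood far above the other 2 libraries of its group.

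Falls of less than 10-fold covered 39 transcripts from 39 loci. Their log2 fold change had a median of -1.95 and a range between -3.22 and -0.75. The transcripts named from this class were picked after their values were seen. The rank 20 transcript lies just inside the 10-fold limit, at 9.34-fold, and was the most uneven of all members in control nodules. It had 374, 324.5 and 433 CPM in NAC-OE, against 3977, 1445 and 3086 CPM in GUS-OE, where replicate 2 was the low library. By contrast rank 50 had 262.2, 257.9 and 257.5 CPM in NAC-OE, against 1205, 1515 and 1425 CPM in GUS-OE, and its NAC-OE SD on the log2 scale, 0.015, was the smallest of all members. The smallest called fall, 1.69-fold, was that of rank 59, with 1013, 1005 and 795 CPM in NAC-OE, against 1109, 1381 and 1291 CPM in GUS-OE. With limma on log2(FPKM + 0.1) the call of rank 59 was lost.

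The 14 transcripts that were not called came from 13 loci, and their 95% intervals together ran between -0.96 and 0.93 on the log2 scale. Among all transcripts tested 19.3% were uncalled with an interval inside 2-fold. The narrowest interval was that of Lj4g3v0153700.1 at rank 39, of 2204 bases on chromosome 4 with whole counts. It had 1733, 1509 and 1486 CPM in NAC-OE replicates 1, 2 and 3, against 1574, 1654 and 1742 CPM in GUS-OE replicates 1, 2 and 3, and the groups overlapped. Its log2 fold change was -0.40 with an interval of -0.77 to -0.03, which leaves 0 outside although the adjusted p was 0.057 (edgeR). DESeq2 and limma-voom called it lower, with adjusted p of 0.019 and 0.029.

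Ranks 60 and 61 are 2 transcripts of 1 locus on chromosome 2 with nearly the same counts. Rank 61 had 1501, 1401 and 1276 CPM in NAC-OE, against 1194, 1291 and 1272 CPM in GUS-OE. Rank 60, Lj2g3v2197650.2, had 1502, 1401 and 1276 CPM in NAC-OE, against 1195, 1292 and 1273 CPM in GUS-OE (log2 fold change -0.17, interval -0.55 to 0.20). Rank 71, of 3111 bases on chromosome 5, had 1391, 1255 and 1187 CPM in NAC-OE, against 1019, 1226 and 1092 CPM in GUS-OE. Rank 68, of 1609 bases on chromosome 1, had 1322, 1179 and 1091 CPM in NAC-OE, against 1030, 1289 and 1221 CPM in GUS-OE. In these transcripts replicate 1 was the highest NAC-OE library and the lowest GUS-OE library. All 4 had fitted values below 0 with TMM factors, and with the upward shift of library sizes alone they stood between 0.02 and 0.20, still uncalled. Ranks 26, 48 and 56, uncalled with TMM factors, were called higher with library sizes alone.

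Ranks 11, 18 and 26 were also uncalled and were among the 7 most abundant transcripts of NAC-OE nodules. They were picked for description after their values were seen. Rank 11 was the most abundant transcript of NAC-OE nodules, with 7656, 5426 and 5643 CPM in NAC-OE, against 4647, 5937 and 5699 CPM in GUS-OE, and the groups overlapped. Rank 26 had 3776, 4170 and 2980 CPM in NAC-OE, against 1973, 2300 and 2050 CPM in GUS-OE, without overlap, and its interval of 0.01 to 0.93 lay just above 0 (edgeR adjusted p = 0.072).

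The 5 transcripts that rose came from chromosomes 1, 2 and 5 and did not overlap between groups in any case. The largest rises were those of ranks 88 and 86, which belong to neighbouring loci on chromosome 5 and had nearly the same counts, so that they are not separate observations. Rank 88, Lj5g3v1794670.1, of 1933 bases, had 6244, 5366 and 4085 CPM in NAC-OE replicates 1, 2 and 3, against 853.8, 979 and 1018 CPM in GUS-OE replicates 1, 2 and 3. Its log2 fold change was 2.14 ± 0.22 (SE), or 4.39-fold higher. Rank 86, Lj5g3v1794660.1, of 2650 bases, had 6260, 5384 and 4105 CPM in NAC-OE, against 865, 986 and 1025 CPM in GUS-OE, and rose 4.37-fold. In NAC-OE nodules they stood at ranks 3 and 2 of all transcripts. Rank 77, of 2624 bases on chromosome 2, had 3283, 2788 and 2739 CPM in NAC-OE, against 1009, 1270 and 940 CPM in GUS-OE, and rose 2.17-fold.

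The remaining rises were smaller than 2-fold. Rank 33, of 733 bases on chromosome 5, had 4115, 3871 and 2629 CPM in NAC-OE, against 1598, 1910 and 1744 CPM in GUS-OE, and rose 1.62-fold. Rank 89, of 2695 bases on chromosome 1, had 2114, 2104 and 1446 CPM in NAC-OE, against 907, 995 and 943 CPM in GUS-OE, and rose 1.6-fold. Both calls were lost without GUS-OE replicate 1 and without GUS-OE replicate 3, which left 3 members called higher. None of the 5 had whole counts, so the value of each alone is uncertain.

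**Figure D3:**
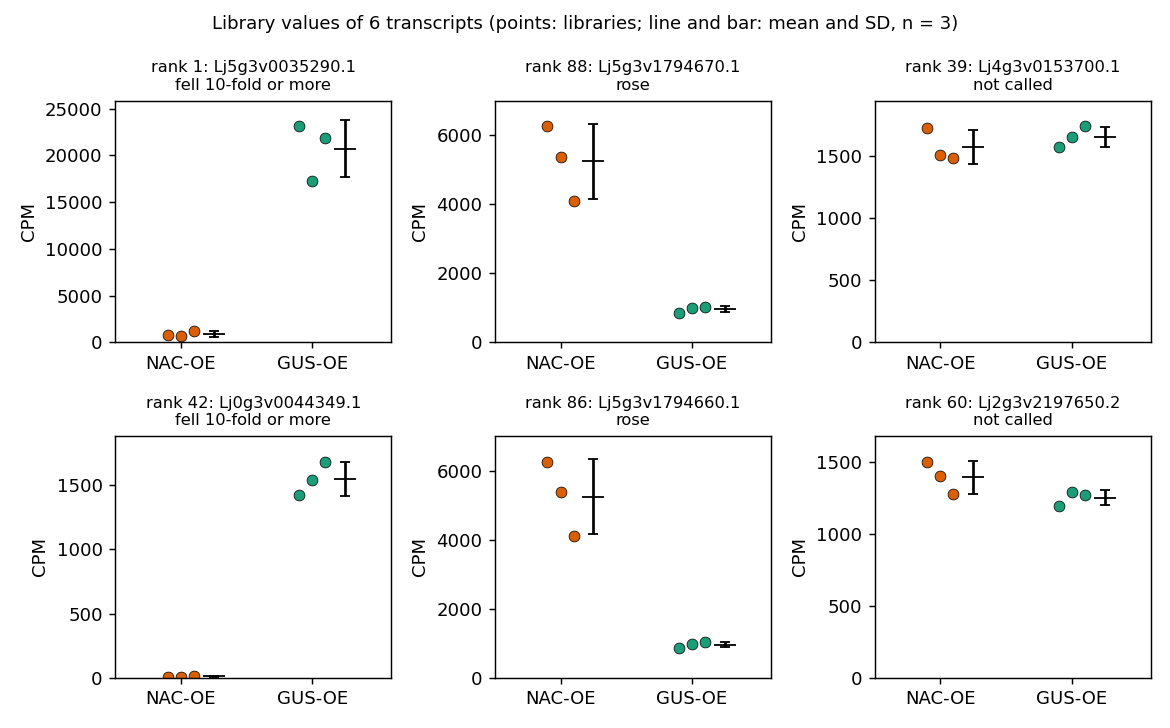
CPM in each library (points) with mean and SD (line and bar, n = 3) for 2 transcripts that fell, 2 that rose and 2 that were not called, NAC-OE on the left and GUS-OE on the right of each panel; every axis starts at 0. Ranks 1 and 42 lie near 0 in NAC-OE, ranks 86 and 88 stand at 4085 CPM or more in NAC-OE, and ranks 39 and 60 overlap.

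To test the changes against GUS-OE libraries that had no part in the choice, the 100 transcripts were chosen again on 1 GUS-OE library at a time and the whole table was fitted without that library. Chosen on GUS-OE replicate 1, 83 were called lower (28.0% of all transcripts tested in that fit), 41 by 10-fold or more (2.66%), and 1 was called higher (28.6%). Chosen on replicate 2, the counts were 80 (28.9%), 41 (2.62%) and 5 (30.1%). For replicate 3 they were 81 (27.1%), 41 (2.64%) and 3 (27.7%). The 3 choices had 94, 95 and 99 transcripts in common with the 100 described here. Rank 1 was in each choice, with a log2 fold change between -4.98 and -4.84 over these fits (edgeR adjusted p at most 1.3e-05), and rank 42 one between -7.67 and -7.50 (edgeR adjusted p at most 1e-05). Rank 77 was also in each choice and was called higher, at 1.04 to 1.30 (edgeR adjusted p at most 0.0074). Ranks 86 and 88 were not among the first 100 of GUS-OE replicate 1. When chosen on replicates 2 and 3 they were called higher, each with an edgeR adjusted p of 0.00032. The NAC-OE libraries were the same in all 3 fits, and any pair of fits had 1 GUS-OE library in common.

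The members were as long as transcripts in general, with a median of 1340 bases, against 1280 bases over all transcripts tested. Members that fell 10-fold or more were shorter, with a median of 976 bases, as were transcripts that fell as far in the whole table, with 894 bases. Medians were 1330 bases for members that fell less (1210 over all tested), 1750 for those not called (1520 over all tested that were uncalled with an interval inside 2-fold) and 2620 for those that rose (1420 over all tested). Of 14 members under 600 bases, 13 fell 10-fold or more, and the median over the 14 was -5.66 on the log2 scale. Among all tested transcripts of that length 3.71% fell as far. Of 41 members between 1000 and 2000 bases 9 did (2.53% of all tested), as did 11 of 23 at 2000 bases or more (0.939% of all tested), so falls of this size were found at every length. The short members are not 14 separate observations. Ranks 1 and 5, 40 and 100, 43 and 83, and 96 and 99 are linked by locus, neighbouring locus or like counts. Of the 14, 8 are unplaced, and 7 of those 8 had fractional counts.

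By the identifiers, 17 members lay on unplaced sequence, which held 33.7% of all transcripts, and 11 of the 17 fell 10-fold or more, against 2.74% of all tested there. Chromosome 5 held 17 members with 8.55% of all transcripts, and chromosome 1 held 16 members with 16.6%. Chromosomes 2 and 4 held 15 members each with 11.2% and 11.6%, and chromosomes 3 and 6 held 11 and 9 members with 11.3% and 7.02%. Falls of 10-fold or more numbered 5 to 8 on chromosomes 1, 2, 4 and 5 and 2 each on chromosomes 3 and 6, where the share over all tested lay between 2.21% and 3.0% on every chromosome. Whole counts in every library were found for 39 members, against 25.1% of all transcripts tested. By class they were 9 of 42 falls of 10-fold or more (38.5% of all such falls), 23 of 39 smaller falls (30.8%), 7 of 14 uncalled transcripts (23.5%) and 0 of 5 rises (20.7%). Among the 39 with whole counts 32 fell, against 38.6% of all tested transcripts with whole counts, and 9 fell by 10-fold or more, against 4.05%.

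A number of members cannot be counted as separate, although the sharing of reads itself was not measured. Linked by a common locus, a neighbouring locus or counts alike within 5%, 31 members fell into 14 sets, and 83 sets or single transcripts remained. Taking the most abundant transcript of each, 66 of 83 fell, 30 by 10-fold or more, 4 rose and 13 were not called. Over all transcripts tested, not reduced to sets, these shares were 30.7%, 2.64%, 31.5% and 37.8%. Ranks 40 and 42 stayed apart only because their counts differed by more than 5% in NAC-OE replicate 1, so 83 may be too many. Ranks 16 and 17, of neighbouring loci on chromosome 4, had identical counts, and rank 19 beside them fell by the same 17.0-fold. Ranks 36, 37, 63 and 82 form a further set of 4 transcripts on chromosome 2, with log2 fold changes between -3.41 and -3.37. In 13 of the 14 sets all members shared a class, which is no separate result where linked members carry nearly the same counts. The exception was the locus of ranks 73 and 75 on chromosome 1, where 2 transcripts of similar control level parted. Rank 73 had 22.5, 15.8 and 28.2 CPM in NAC-OE, against 1209, 934 and 1137 CPM in GUS-OE, while rank 75 had 619, 468 and 586 CPM in NAC-OE, against 1196, 1007 and 1056 CPM in GUS-OE. Their log2 fold changes were -5.96 ± 0.24 and -1.29 ± 0.16 (SE), with fractional counts in both. A further 6 transcripts of 5 member loci, themselves no members, were each called in the direction of the member. Over all transcripts tested, 30.7% were called lower and 31.5% higher. All 6 carried fractional counts, and their direction is no separate result if they share reads with the member. The size of the change was not always alike. Rank 97 had a log2 fold change of -4.86, and the further transcripts of its locus had -4.58 and -1.55. The latter averaged 14.9 CPM in NAC-OE and 34.7 CPM in GUS-OE.

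NAC-OE libraries differed more from each other over these transcripts than GUS-OE libraries did. The SD of log2 CPM among replicates was higher in NAC-OE for 82 of the 100, against 54.2% of all transcripts tested. It exceeded 0.25 for 52 members in NAC-OE and for 6 in GUS-OE. The median SD in the class that fell 10-fold or more was 0.346 in NAC-OE and 0.121 in GUS-OE. Over all transcripts that fell as far it was 0.591 in NAC-OE and 0.255 in GUS-OE. Those transcripts were mostly far scarcer in NAC-OE, with a median NAC-OE rank of 45100, against 1470 for the class, so these SDs belong to unlike levels. The NAC-OE SD was the greater for 39 of the 42 members and for 786 of all 1222 that fell as far. The NAC-OE libraries took different places by class. Replicate 3 was the highest NAC-OE library for 32 of the 42 deep falls (76.2%, against 43.6% among all transcripts that fell that far), with a median of 0.35 above the group mean in log2 CPM. It was the lowest for 13 of the 14 uncalled transcripts and for all 5 rises, with medians of -0.16 and -0.34 around the mean. Among all transcripts of these classes it was the lowest for 28.2% and 35.8%. With TMM factors the counts were 29 of 42, 14 of 14 and 5 of 5. Replicate 2 was the lowest NAC-OE library for 36 of the 42 deep falls (85.7%, against 43.0% among all transcripts that fell that far). Without NAC-OE replicate 3, 81 members were lower, 42 of them by 10-fold or more, and 7 were higher, so the falls were as many without it. Without NAC-OE replicate 2, 37 fell 10-fold or more. In the control group replicate 2 stood at an end of the range most often, as the highest GUS-OE library for 58 members and the lowest for 28, against 33.7% and 39.4% of all transcripts tested.

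**Figure D4:**
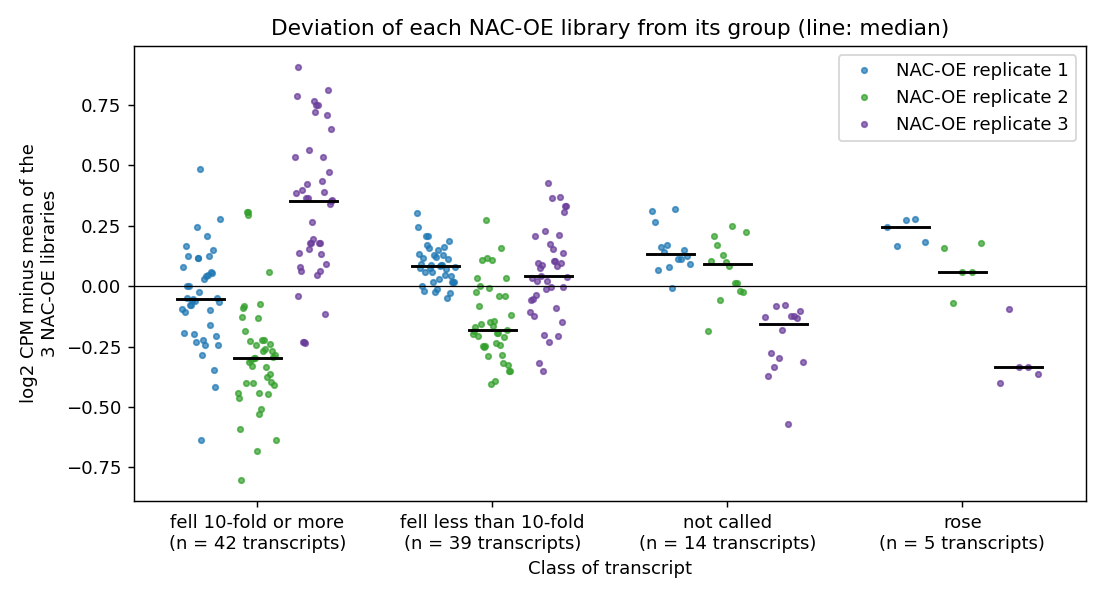
Log2 CPM of each NAC-OE library minus the mean of the 3 NAC-OE libraries, for each transcript (points) by class, with medians (lines). Replicate 3 lies highest for most transcripts that fell 10-fold or more (median 0.35) and lowest for those that rose (median -0.34).

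By share of counts the classes differed in weight. The 42 transcripts that fell 10-fold or more held 0.817% ± 0.162 of all counts in NAC-OE and 14.9% ± 0.247 in GUS-OE (SD, n = 3 each). The 39 smaller falls held 2.58% ± 0.21 in NAC-OE and 7.94% ± 0.218 in GUS-OE. For the 14 uncalled transcripts the shares were 3.05% ± 0.409 in NAC-OE and 2.54% ± 0.2 in GUS-OE, and for the 5 rises 1.88% ± 0.355 in NAC-OE and 0.568% ± 0.0455 in GUS-OE. The 81 members that fell held 3.4% ± 0.308 in NAC-OE and 22.8% ± 0.13 in GUS-OE, so in NAC-OE nodules they held less than the 19 others together. A level above 1000 CPM was reached by 25 of the 100 in NAC-OE and by 81 in GUS-OE, and 17 were below 100 CPM in NAC-OE. These shares rest on the values that chose the members, and fewer cells of a type and less RNA per cell cannot be told apart in such whole-nodule samples.

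Position in the NAC-OE ranking largely follows from the classes, which were cut on NAC-OE over GUS-OE among transcripts abundant in GUS-OE. The ranks are given as description. All 14 uncalled transcripts and all 5 that rose were among the 100 most abundant transcripts of NAC-OE nodules, and 6 members were among the first 7. Of the 81 that fell, 10 remained there, 2 of them from the deep class, at ranks 51 and 83 of NAC-OE. The median NAC-OE rank of the deep class was 1470 and the last was 17842. Judged per length by FPKM, the 10 highest transcripts of control nodules were all members, and 51 members were among the first 100 of GUS-OE. In NAC-OE 5 members were among the first 100 by FPKM. Rank 1 led the FPKM order in GUS-OE, with 1684, 1325 and 2604 FPKM in NAC-OE replicates 1, 2 and 3, against 48944, 36585 and 46273 FPKM in GUS-OE replicates 1, 2 and 3.

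Transcripts further down the same ranking were set beside the first 100. Of ranks 101 to 200, 82 were called lower, 14 by 10-fold or more, and 3 higher, and their median was -1.60 on the log2 scale. Within the members, ranks 1 to 10, 11 to 50 and 51 to 100 had medians of -4.33, -2.78 and -2.30, and 8 of 10, 17 of 40 and 17 of 50 fell 10-fold or more. For ranks 501 to 1000 the median was -1.02 and 6.4% fell that far. The share of counts held by ranks 101 to 200 was 3.43% ± 0.22 in NAC-OE and 6.45% ± 0.0338 in GUS-OE (SD, n = 3 each), and that of ranks 501 to 1000 was 8.8% ± 0.0341 in NAC-OE and 9.42% ± 0.241 in GUS-OE. No test was made between rank bands, which were all chosen on the GUS-OE level.

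**Figure D5:**
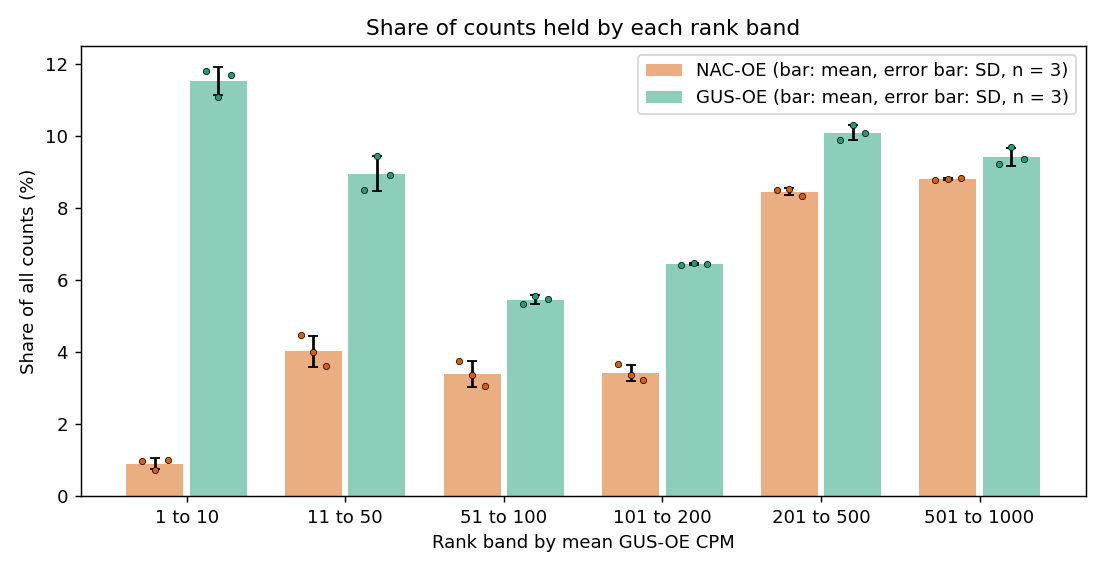
Share of all counts held by 6 bands of rank by mean GUS-OE CPM, in NAC-OE (left bar of each pair) and GUS-OE (right bar), as mean and SD (bars, n = 3) with each library (points). The first 3 bands are the 100 transcripts described; the band of ranks 1 to 10 holds 0.904% in NAC-OE and 11.5% in GUS-OE.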

How the data were processed

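The deposited table holds, per the file headers, a count and an FPKM for each of 46398 transcripts in 6 libraries. The authors deposited estimated counts, of which 51.3% to 52.7% per library are not whole within 1e-09. FPKM values were computed by the authors per kilobase of transcript and scaled to library depth. The submitters' processing notes name fastp 0.22.0, HISAT2 and featureCounts. The sources used here give neither the genome build and annotation nor the rule for divided reads nor whether strand was used, and without strand reads of antisense neighbours cannot be told apart. Libraries were made with a NEBNext Ultra II kit, per the labels' protocols. None of the identifiers (0 of 46398) matched the reference table of 40429 genes of another accession (LjGifu_v1.2), so gene lists were not tested.

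The members, classes and lists were chosen with earlier results of these data known. Rounded counts went into edgeR 4.0.16 under R 4.3.3 (glmQLFit and glmQLFTest, robust, TMM factors, filterByExpr with a minimum count of 10, group alone), with Benjamini-Hochberg adjustment over 46346 transcripts. SE is the log2 fold change divided by the root of F, and the 95% interval uses its t quantile. Transcript lengths were derived from the ratio of counts to FPKM. The fit was tested on simulated data in which far fewer transcripts changed than were called here. That simulation does not test the scaling for changes as many as these. Alternatives used DESeq2 1.42.0 and limma 3.58.1. Transcripts named with all library values were the first 10, the 10 lowest fold changes, all rises, the 5 narrowest uncalled intervals and the edges of the choice, a rule to which ranks 11, 20, 26, 50, 59 and 75 were added after their values were seen. Identifiers were printed for 2 falls (the most abundant and the deepest), the 2 largest rises and the uncalled transcripts of narrowest interval. Replicates of a group differed beyond sampling noise, with a chi-square per degree of freedom of at least 14.0. The labels do not tie the libraries to separate plants, so the p-values describe the spread among these 6 libraries alone, which can be technical. The labels give no batch.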

Additional observations from a re-analysis of the deposited data

How the results depend on the processing

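With the members kept, no call turned round under any of 15 refits. The count of 5 members called higher was the least stable: it was 8 with library size alone, with limma on log2(FPKM + 1) and with limma on log2(FPKM + 0.1). Leaving out 1 library gave 3 to 7 higher, 81 to 82 lower, 37 to 43 lower by 10-fold or more and 12 to 16 not called. Choosing on 1 GUS-OE library and fitting without it gave 1 to 5 higher. The members' share of counts differed by -17.6 percentage points (NAC-OE minus GUS-OE), -18.1 to -17.3 without 1 library, -18.5 to -17.3 when chosen on 1 library, -15.5 with members ranked by FPKM (75 lower, 48 by 10-fold or more, 5 higher, 20 not called) and -22.0 as a share of summed FPKM. Counts summed per locus gave 81 lower, 36 by 10-fold or more, 6 higher and 13 not called. The cause was not tested. Restricting to members with whole counts, chosen after seeing the data like the count of 1 member per linked set, leaves fewer transcripts: 32 lower, 9 by 10-fold or more, 0 higher and 7 not called, or 31, 8, 2 and 6 when such transcripts of the whole table formed a fit of their own. In the fit with the replicate number as block, the members came to 81 lower, 42 by 10-fold or more, 5 higher and 14 not called. Apart from the fits without 1 GUS-OE library, shares over all transcripts or loci tested are not given for these refits. Those of the main fit do not apply to them. Deviations of same-numbered libraries correlated at -0.05, 0.11 and -0.05, and those of libraries with unlike numbers at -0.15 to 0.19. With 3 libraries per group these values cannot show whether same-numbered libraries were handled together. The 6 transcripts given by identifier kept direction and call under the refits, apart from Lj4g3v0153700.1 (called lower by DESeq2 and limma-voom) and the sign of Lj2g3v2197650.2, which turned to 0.15 with library size alone and with both FPKM settings and stayed uncalled. Depth did not limit these transcripts, whose lowest count was 145.7.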
